A study of Rattus norvegicus with 12 samples.

Results

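The mitochondrial carriers of the SLC25 family were followed in cultured rat hepatocytes given dexamethasone or its vehicle. Members were taken by name: every probe whose gene name on the array begins with Slc25a, and the probes of Slc25a47 (listed on the array under its older symbol Hdmcp), Ucp1, Ucp2 and Ucp3. This gave 26 genes with 36 probes, out of 41012 probes on the array. Of the 26 genes, 25 were tested among 26550 genes in all. The exception was Ucp3, which was above background on none of the 12 arrays. The 26 genes are not the whole family: Slc25a13, for example, was not analysed here.

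The study measured RNA in primary hepatocytes of adult Sprague-Dawley rats aged 11 weeks, isolated by collagenase perfusion and kept on collagen-coated dishes, first with serum and then without it. Male and female cultures were exposed for 6 h to dexamethasone at 100 nM (written "nm" in the labels), a synthetic glucocorticoid, or to 0.01% ethanol alone. The 12 samples formed 4 groups of 3, namely male vehicle, male dexamethasone, female vehicle and female dexamethasone, each sample on its own 1-colour Agilent array. The groups follow the sample titles, since the labels' gender field reads male for all 12. All groups shared the strain, the age and the culture, and no allele or transgene was involved. Whether replicates are separate rats is not given in the labels, so the spread behind the p-values may be technical. In a bulk culture, fewer cells of a type and less RNA per cell cannot be told apart.

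SLC25 carriers sit in the inner mitochondrial membrane, with a few in other organelles, and exchange metabolites, nucleotides and cofactors between the matrix and the cytosol. In hepatocytes they connect the mitochondrial and cytosolic steps of the urea cycle, gluconeogenesis, fatty acid oxidation and ATP export. Glucocorticoids are known to favour amino acid breakdown and glucose production in the liver, acting through the glucocorticoid receptor, which binds paired short DNA elements. The uncoupling proteins are members of the same family that are known for proton leak, Ucp1 in brown fat above all.

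The 250 bases before the annotated start are shown for Slc25a47, Slc25a29 and Slc25a15, which rose in both sexes, and for Slc25a22, which passed in males and holds the core letters, TGTTCT, of the element the receptor is known to bind. They are from RefSeq on build GRCr8, 5′ to 3′ on the gene's own strand. The windows are chr6:133531491-133531740 (plus strand) for Slc25a47, chr6:133517198-133517447 (minus) for Slc25a29, chr16:76336620-76336869 (plus) for Slc25a15 and chr1:205965878-205966127 (minus) for Slc25a22. Capitals mark the letters TGTTCT or their reverse complement AGAACA.
Slc25a47: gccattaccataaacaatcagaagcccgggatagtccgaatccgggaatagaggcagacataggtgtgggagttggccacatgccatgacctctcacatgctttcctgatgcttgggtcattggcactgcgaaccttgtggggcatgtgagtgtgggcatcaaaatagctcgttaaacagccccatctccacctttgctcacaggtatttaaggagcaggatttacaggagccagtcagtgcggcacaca
Slc25a29: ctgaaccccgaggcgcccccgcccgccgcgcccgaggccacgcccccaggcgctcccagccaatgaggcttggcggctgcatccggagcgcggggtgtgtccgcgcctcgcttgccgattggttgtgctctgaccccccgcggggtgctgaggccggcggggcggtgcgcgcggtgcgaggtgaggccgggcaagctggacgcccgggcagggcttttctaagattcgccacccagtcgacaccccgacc
Slc25a15: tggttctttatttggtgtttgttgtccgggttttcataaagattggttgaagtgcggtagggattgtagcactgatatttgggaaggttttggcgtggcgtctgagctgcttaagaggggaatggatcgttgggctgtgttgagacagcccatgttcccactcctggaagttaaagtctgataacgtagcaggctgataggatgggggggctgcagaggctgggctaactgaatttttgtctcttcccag
Slc25a22: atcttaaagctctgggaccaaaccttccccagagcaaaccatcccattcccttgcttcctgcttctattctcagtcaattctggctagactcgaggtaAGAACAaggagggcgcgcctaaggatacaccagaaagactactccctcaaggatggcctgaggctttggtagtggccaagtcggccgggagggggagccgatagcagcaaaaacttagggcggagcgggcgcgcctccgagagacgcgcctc

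Of the 26 carriers, 22 had an entry in the promoter table. Both strands of the 250 bases were searched for TGTTCT, which 3 of the 22 hold (Slc25a1, Slc25a10 and Slc25a22), against 17.1% of the 27457 windows in the table. The match in Slc25a22 begins at position -152 relative to the gene start. The full palindrome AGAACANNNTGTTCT, which overlaps TGTTCT, is in none of the 22 and in 0.00364% of all windows. These are counts of letters in 1 short window of each gene, not of binding.

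Arrays differed by slide. All 3 arrays of male vehicle were on slide 1 together with replicate 1 of male dexamethasone, whose replicates 2 and 3 were on slide 2. Female vehicle had its replicates 1 and 2 on slide 2 and replicate 3 on slide 3, where all 3 arrays of female dexamethasone also were. Between 45.9% and 66.6% of probes were well above background on the arrays of slide 1, and between 72.4% and 80.4% on the other 8. The median SD between replicates was 0.39 log2 units in male vehicle and 0.16 to 0.25 in the other groups. The number of arrays limits the precision. The 4 glucocorticoid targets used as a check on the treatment, Fkbp5, Tat, Tsc22d3 and Zbtb16, all rose in both sexes. All 10 hepatocyte markers were above background on every array, and markers of other liver cells were measured too. Of the Kupffer cell and macrophage markers, 10 of 12 were above background on all male vehicle arrays, and 0 of the 11 tested passed in either dexamethasone response. In males, 1 of the 10 hepatocyte markers rose and 1 fell, against 5.22% of all genes higher and 4.92% lower. The counts were also 1 and 1 for the 6 endothelial markers tested (median -0.85), of which 1 was above background on all male vehicle arrays. In females 1 hepatocyte marker rose and 0 endothelial markers passed, against 3.00% and 1.13%. The part of these cells in the carriers' differences was not tested.

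In male cultures, 6 carriers rose with dexamethasone, of which 4 carry amino acids, 1 is the liver carrier Slc25a47 and 1 carries a cofactor. Slc25a47 rose 18.3-fold, the basic amino acid carrier Slc25a29 7.21-fold and the ornithine carrier Slc25a15 5.22-fold. Smaller rises were called for the glutamate carrier Slc25a22, the folate carrier Slc25a32 and the aspartate-glutamate carrier Slc25a12, the last from vehicle arrays on which it was not above background. In the limma fit, with an adjusted p below 0.05 over all genes as the threshold, 6 of 25 carriers were called higher and 0 lower, against 5.22% of all genes called higher and 4.92% lower. Over all genes, 1386 were called higher and 1305 lower; with quantile normalization the split was 2274 and 1133, and with each array's median as the scale 1020 and 2174. For the carriers these scalings gave 6 higher and 0 lower, and 5 higher and 2 lower (Slc25a11 and Ucp1). With normexp background correction 6 carriers were higher and 1 lower (Slc25a16), where 930 of all genes were called higher and 3302 lower. The median difference of the 25 carriers was 0.18 log2 units, beside -0.07 over all genes. The male vehicle arrays and 1 male dexamethasone array share slide 1: with slide as a block 1 carrier was called (Slc25a29), where 1.78% of all genes were called. Within slide 1 alone, where 1 dexamethasone array faces 3 vehicle arrays, 0 of 26544 genes passed (2111 had an unadjusted p under 0.05), carriers included. A fit to the male arrays alone called 2, Slc25a29 and Slc25a47, and 0.900% of all genes. The count of 6 is that of the fit to both sexes together, which shares its spread with the less variable female arrays. That fit also draws on more arrays, and what lowered the count in the male fit was not tested. With replicate pairs as blocks 8 carriers were called, among them Slc25a1 and Slc25a10 as lower and Slc25a21 as higher, where 15.7% of all genes were called in either direction.

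Slc25a47, a carrier found mainly in the liver whose substrate is not settled, had the largest difference of any carrier in both sexes. Its levels, which here and below are log2 signals minus the 75th percentile of the array, were -0.66, 1.95 and 0.25 on male vehicle replicates 1 to 3 and 3.96, 5.55 and 4.60 on the male dexamethasone arrays. Every dexamethasone array lay above every vehicle array, although replicate 2 stood above the other replicates in both groups. The male difference was 4.19 ± 0.57 (SE; limma, adjusted p = 0.00253), and it was 3.45 ± 0.83 with slide as a block (adjusted p = 0.0763). On the female arrays the levels were -0.60, -0.01 and -0.27 in vehicle and 4.51, 4.17 and 3.94 in dexamethasone. The female replicates lay closer together than the male ones, and the groups were far apart. The female difference was 4.50 ± 0.57, or 22.7-fold (adjusted p = 0.00227). Its single probe lies on chromosome 6, 133203833 to 133203892, plus strand, of build rn3, the build of the array's positions.

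Slc25a29, which carries arginine, lysine and other basic amino acids, was at 0.04, 0.41 and 0.24 on the male vehicle arrays and at 2.45, 3.79 and 2.99 with dexamethasone. In females it was at -0.10, 0.24 and -0.16 in vehicle and at 2.83, 2.96 and 2.59 with dexamethasone. The groups did not overlap in either sex and the vehicle arrays of both sexes lay closely together. The differences were 2.85 ± 0.29 in males (adjusted p = 0.000683) and 2.80 ± 0.29, or 6.96-fold, in females (adjusted p = 0.000695). A second probe of the gene, about 1 kb away, gave 2.85 (adjusted p = 0.00126, over all probes) and 2.78 (adjusted p = 0.00179). Slc25a29 was the only carrier called in males with slide as a block, at 2.23 ± 0.33 (adjusted p = 0.0277).

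Slc25a15 exchanges ornithine and citrulline across the inner membrane and is the carrier of the urea cycle. It was at 2.15, 1.75 and 1.48 on the male vehicle arrays and at 3.28, 5.37 and 3.90 with dexamethasone. Replicate 2 of male dexamethasone was the highest of these arrays, and no dexamethasone array reached down to a vehicle array. Female levels were 1.23, 1.72 and 1.18 in vehicle and 4.14, 4.58 and 3.83 with dexamethasone. The difference was 2.38 ± 0.45 in males (adjusted p = 0.00988) and 2.81 ± 0.45, or 7.0-fold, in females (adjusted p = 0.00781). In males it was 1.48 ± 0.54 with slide as a block (adjusted p = 0.204) and 2.38 ± 0.51 in a fit of the male arrays alone (adjusted p = 0.0841). Its probe is on rn3 chromosome 16, 74299877 to 74299936, plus strand.

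Slc25a22 brings glutamate into the matrix. Its levels were 3.15, 2.25 and 2.67 in male vehicle and 3.51, 3.67 and 3.42 in male dexamethasone, with no overlap. In females they were 2.62, 2.82 and 2.41 in vehicle and 3.55, 3.39 and 3.42 with dexamethasone, again with no overlap. The male difference of 0.85 ± 0.22, or 1.80-fold, was past the threshold (adjusted p = 0.034), and the female difference of 0.84 ± 0.22 was not (adjusted p = 0.0561). The male call held when male vehicle replicate 1 or female vehicle replicate 2 or 3 was left out and was lost without any other single array (adjusted p up to 0.107). With the 4 arrays of slide 1 left out, the female difference passed (adjusted p = 0.0166).

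Slc25a12, the aspartate-glutamate exchanger best known from brain and muscle, was dim. Its levels were -5.33, -5.63 and -6.29 in male vehicle, where no array was well above background, and -4.58, -4.52 and -4.55 in male dexamethasone, where all 3 were. They were -5.07, -5.09 and -5.07 in female vehicle and -4.49, -4.58 and -4.54 in female dexamethasone. The fitted male difference was 1.20 ± 0.21 (adjusted p = 0.00734) and the female one 0.54 ± 0.21 (adjusted p = 0.194). No fold is given for males, because the male dexamethasone level does not exceed the limit of measurement on the vehicle arrays. With normexp background correction the male difference turned to -0.12 (adjusted p = 0.566). A brighter probe that the array names RGD1561141, and that RefSeq lists under Slc25a12, was above this limit throughout: it was at 2.33, 3.30 and 2.71 in male vehicle and 3.69, 3.59 and 3.60 with dexamethasone. Its male difference was 0.85 ± 0.22 (adjusted p = 0.034) and its female difference 0.31 ± 0.22 (adjusted p = 0.563).

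The remaining amino acid carrier, Slc25a2, a second ornithine carrier, was well above background on 0 of the 3 male vehicle arrays. It differed by 0.36 ± 0.22 in males (adjusted p = 0.323) and by 0.61 ± 0.22 in females (adjusted p = 0.161). Of the 5 amino acid carriers, 4 were called in males, Slc25a12 with the limit just given. In females 2 of the 5 were called, at a median of 0.84.

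**Figure D1:**
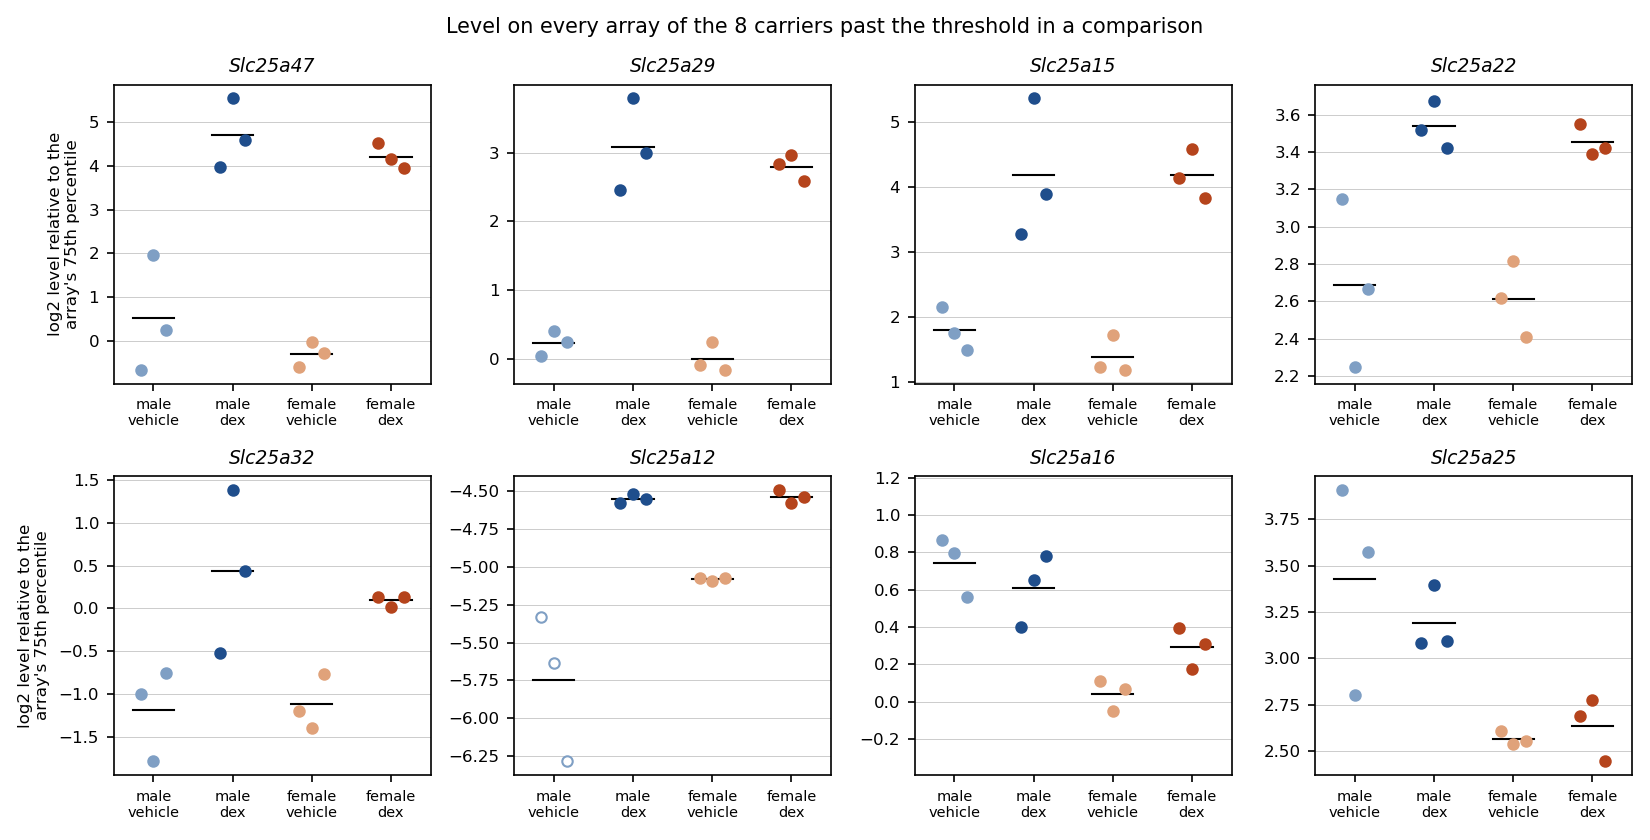
Level on every array (log2 signal minus the 75th percentile of the array, its own scale for each gene) of the 8 carriers past the threshold in a comparison. Points are single arrays (replicates 1 to 3 from left to right), bars are group means and open points are arrays not well above background; Slc25a47 lies at 3.94 or above on all 6 dexamethasone arrays and at 1.95 or below on all 6 vehicle arrays.

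Among the carriers of cofactors, Slc25a32 was called in a dexamethasone response. Slc25a32, which brings folate into mitochondria, was at -1.0, -1.79 and -0.76 in male vehicle and at -0.52, 1.39 and 0.44 in male dexamethasone. It was at -1.19, -1.39 and -0.77 in female vehicle and at 0.14, 0.02 and 0.14 with dexamethasone. The groups did not overlap in either sex, but the 3 male dexamethasone arrays spanned nearly 2 units. The male difference was 1.62 ± 0.42, or 3.06-fold (adjusted p = 0.0355), and the female one 1.22 ± 0.42 (adjusted p = 0.145). The male call was lost with replicate pairs as blocks (adjusted p = 0.0623). It held when male vehicle replicate 3, male dexamethasone replicate 1 or female vehicle replicate 2 or 3 was left out and was lost without any other single array (adjusted p up to 0.0999). The carriers of coenzyme A and related cofactors Slc25a16 and Slc25a17 and of S-adenosylmethionine Slc25a26 differed by -0.13 to 0.30 in males and by 0.02 to 0.38 in females, none past the threshold.

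The 4 carriers of di- and tricarboxylates and oxoacids did not pass in either sex. Their male differences ran from -0.66 to 0.76, with a median of -0.51. The citrate carrier Slc25a1, which exports citrate for fatty acid synthesis, was at 2.50, 1.76 and 1.81 in male vehicle and at 1.74, 1.18 and 1.23 with dexamethasone. It was at 1.92, 2.00 and 2.01 in female vehicle and at 1.63, 1.74 and 1.66 with dexamethasone. All dexamethasone arrays were below all vehicle arrays of the same sex, by a male difference of -0.64 ± 0.22 (adjusted p = 0.0877) and a female one of -0.30 ± 0.22 (adjusted p = 0.578). With replicate pairs as blocks the male difference of Slc25a1 passed (adjusted p = 0.019). So did those of the dicarboxylate carrier Slc25a10 (-0.66 ± 0.15, adjusted p = 0.032) and the oxodicarboxylate carrier Slc25a21 (0.76 ± 0.14, adjusted p = 0.0198). Slc25a21 was above background on only 1 male vehicle array. The oxoglutarate carrier Slc25a11 differed by -0.39 ± 0.14 in males (adjusted p = 0.103) and by 0.15 ± 0.14 in females (adjusted p = 0.69).

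The carriers of ATP, ADP and phosphate did not pass in either sex. The ADP/ATP translocases Slc25a4 and Slc25a5 and the ATP-Mg/phosphate carriers Slc25a24 and Slc25a25 differed by -0.41 to 0.21 in males and by -0.23 to 0.07 in females. For Slc25a4 the brightest probe differed by -0.41 in males and the dimmer ones by 0.02 and 0.37, none past the threshold over all probes. The 3 probes of Slc25a5 did not move alike either. One of the dimmer ones rose in males by 0.84 ± 0.19 (adjusted p = 0.0224, over all probes), whereas the brightest and the third differed by 0.21 and 0.10. These 3 probes lie within 1 kb on rn3 chromosome X, and in females they differed by -0.09 to -0.02. The phosphate carrier Slc25a3 differed by -0.06 ± 0.17 and -0.20 ± 0.17, and the carnitine-acylcarnitine carrier Slc25a20, which admits long-chain fatty acids for oxidation, by 0.25 ± 0.13 and 0.11 ± 0.13. The 95% intervals for Slc25a20 ran from -0.04 to 0.54 in males and from -0.18 to 0.40 in females.

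**Figure D2:**
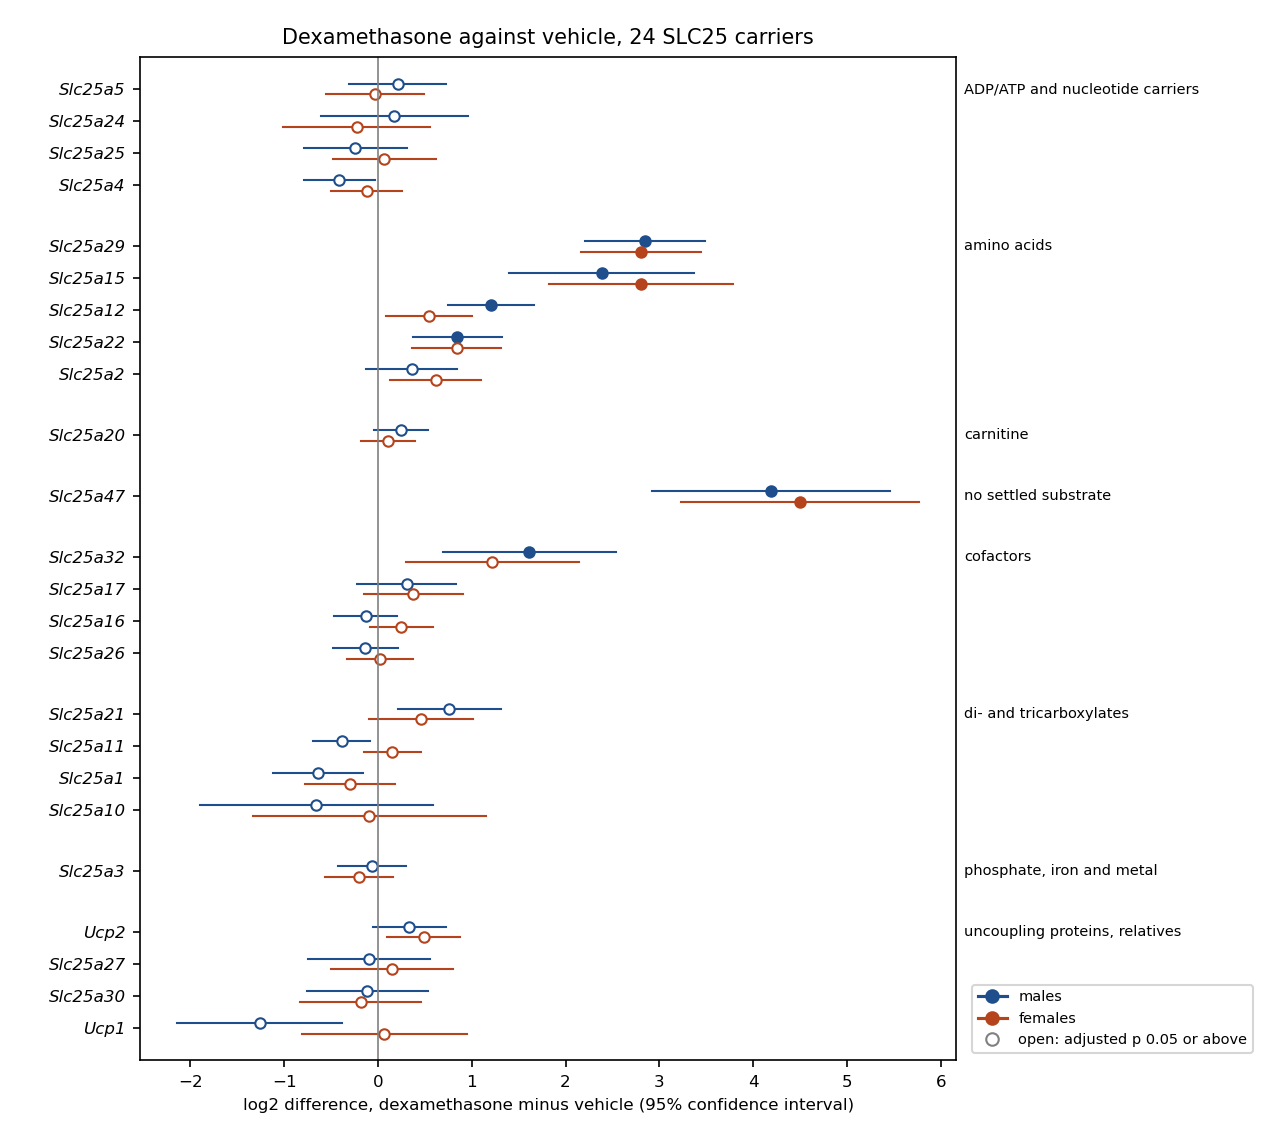
Difference between dexamethasone and vehicle (log2 units, with its 95% confidence interval from the limma fit) for 24 of the 25 carriers tested, grouped by the substrate each is known for, in males (blue) and females (red). Filled points passed an adjusted p of 0.05: Slc25a47, Slc25a29 and Slc25a15 did so in both sexes, and Slc25a22, Slc25a32 and Slc25a12 in males, the last from vehicle arrays not above background.

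In female cultures the same 3 carriers that had the largest male differences passed: Slc25a47, Slc25a29 and Slc25a15. The female call is 3 of 25 carriers higher and 0 lower, against 3.00% of all genes higher and 1.13% lower. The median of the 25 carriers was 0.15 log2 units, beside -0.02 over all genes. Each of the 3 kept its call under all 24 alternative settings tried, slide as a block and each array left out in turn among them. The count rose to 6 in a fit to the female arrays alone and to 6 with the arrays of slide 1 left out, where Slc25a12, Slc25a22 and Slc25a32 passed too. The share of all genes called, in either direction, was 10.1% and 9.11% in these fits. In a fit to the male arrays alone the male count fell instead, so which sex had more calls depended on fitting both together. Over all genes in the female response, 796 were called higher and 299 lower, and with each array's median as the scale 574 and 354. Dexamethasone and vehicle arrays did not overlap for 13 of 25 carriers in females, against 33.8% of all genes, and for 12 of 25 in males, against 25.7%. Of the marker lists, the summed level of 8 stellate cell and fibroblast markers was 8.62 to 14.8 in female vehicle and 5.39 to 7.24 in female dexamethasone, and 1 of the 8, Pdgfrb, fell. Their part in the female differences was not tested.

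Of the 25 carriers, 0 passed in the test of the difference between the responses of the sexes (limma), against 0.105% of all genes. An unadjusted p under 0.05 was found for 3 of the 25 and for 3216 of all 26550 genes, about the same share. These 3 were Slc25a11 (0.54 ± 0.20, adjusted p = 0.284), Ucp1 (1.33 ± 0.56, adjusted p = 0.376) and Slc25a12 (-0.66 ± 0.29, adjusted p = 0.407), as the female minus the male response. Neither Ucp1 nor Slc25a12 exceeded background on a male vehicle array. For Slc25a47 the difference between the responses was 0.31, with a 95% interval of -1.48 to 2.10. For Slc25a29 it was -0.05 (-0.96 to 0.85), for Slc25a15 0.42 (-0.97 to 1.81) and for Slc25a22 -0.01 (-0.68 to 0.67). Intervals this wide do not show that the responses were alike.

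Slc25a29 and Slc25a47, both called in both sexes, are neighbours. Their probes lie 30.2 kb apart on rn3 chromosome 6, at 133173552 to 133173611 on the minus strand and 133203833 to 133203892 on the plus strand. In RefSeq's order no protein-coding gene lies between them, and on GRCr8 their starts are 14.5 kb apart, transcribed away from each other. The genes on either side did not rise. Yy1, a transcription factor next to Slc25a29, differed by -0.20 ± 0.16 in males (adjusted p = 0.47) and 0.04 ± 0.16 in females (adjusted p = 0.963). Wars1, the tryptophanyl-tRNA synthetase next to Slc25a47, differed by -0.19 ± 0.16 (adjusted p = 0.477) and -0.21 ± 0.16 (adjusted p = 0.59). Farther out, Wdr25, Evl and Dlk1 did not pass in either sex. Degs2, a sphingolipid desaturase, fell in females by 1.98 log2 units (SE 0.28, adjusted p = 0.00417) and differed by -0.78 ± 0.28 in males (adjusted p = 0.105). Ucp2 and Ucp3, whose probes are 17.9 kb apart on rn3 chromosome 1, are the other pair of neighbouring carriers.

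**Figure D3:**
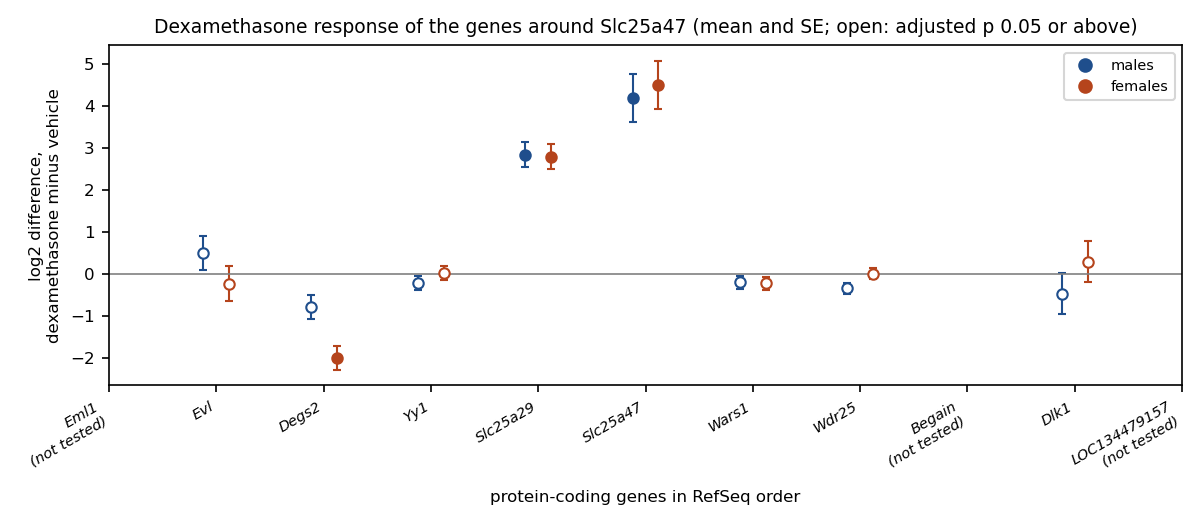
Dexamethasone response (log2 difference with its SE) of the protein-coding genes in RefSeq order around Slc25a47, in males (blue) and females (red); the horizontal axis is gene order, not distance. Filled points passed an adjusted p of 0.05: Slc25a29 and Slc25a47 stand at 2.80 to 4.50, and their tested neighbours lie between -1.98 and 0.50.

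The uncoupling proteins did not pass in either response. Ucp1 was near or below background: it was at -5.32, -5.43 and -6.35 in male vehicle, where no array was well above background, and at -7.63, -6.46 and -6.79 in male dexamethasone, where 2 were. In females, where all 6 arrays were above background, it was at -6.43, -7.22 and -6.06 in vehicle and at -6.47, -6.87 and -6.16 with dexamethasone. The male vehicle values, though higher, are not measured levels, and the fitted difference of -1.26 ± 0.40 (adjusted p = 0.0699) has no measured starting point. The brown fat marker Cidea was tested along with Adipoq, Plin1 and Acta1, and 0 of these 4 passed in either response.

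Ucp2, an uncoupling protein of many tissues, was above background on all 12 arrays. It was at -2.28, -1.97 and -2.32 in male vehicle and -2.03, -1.58 and -1.94 in male dexamethasone, where the groups overlapped. It was at -1.93, -1.90 and -2.25 in female vehicle and -1.51, -1.45 and -1.66 with dexamethasone, where they did not. The differences were 0.33 ± 0.18 (adjusted p = 0.254) and 0.49 ± 0.18 (adjusted p = 0.169). The relatives Slc25a27 and Slc25a30, both described as uncoupling-like carriers, differed by -0.10 ± 0.29 and -0.11 ± 0.29 in males and by 0.15 ± 0.29 and -0.18 ± 0.29 in females. The dimmer probes of Slc25a27 differed by -0.67 ± 0.24 (adjusted p = 0.099, over all probes) and -0.25 ± 0.25 in males. In females these gave -0.20 ± 0.24 and -0.03 ± 0.25.

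**Figure D4:**
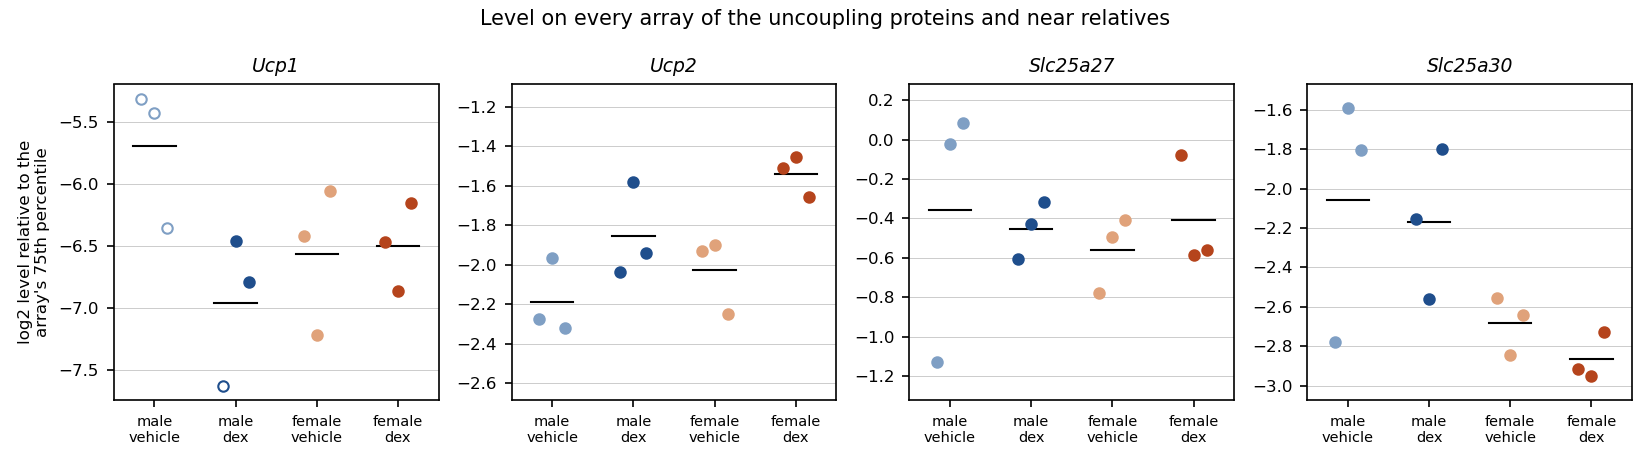
Level on every array (log2 signal minus the 75th percentile of the array, its own scale for each gene) of Ucp1, Ucp2 and the relatives Slc25a27 and Slc25a30. Points are single arrays, bars are group means and open points are arrays not well above background; the open points of Ucp1 in male vehicle, at -6.35 to -5.32, are not measured levels, and Ucp2 runs from -2.32 in male vehicle to -1.45 in female dexamethasone.

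Without dexamethasone, 2 carriers were lower in females than in males and none higher, against 7.97% of all genes lower and 5.83% higher. Slc25a16, a carrier linked to mitochondrial coenzyme A, was at 0.87, 0.80 and 0.56 in male vehicle and at 0.11, -0.05 and 0.07 in female vehicle, with no overlap. The difference was -0.70 ± 0.15, or 1.62-fold (adjusted p = 0.0154). It was lost without female vehicle replicate 2 (adjusted p = 0.0555) and with slide as a block (-1.02 ± 0.29, adjusted p = 0.148). Slc25a25, a calcium-regulated carrier that exchanges ATP-Mg for phosphate, was at 3.91, 2.80 and 3.58 in male vehicle and at 2.61, 2.54 and 2.55 in female vehicle. The female arrays lay closely together below all the male ones, and the difference was -0.86 ± 0.25, or 1.82-fold (adjusted p = 0.0419). That call held without male vehicle replicate 2 or male dexamethasone replicate 2 and was lost without any other single array (adjusted p up to 0.104). A dimmer second probe of Slc25a25 differed by 0.25 ± 0.48 the other way (adjusted p = 0.765, over all probes), and was above background on only 1 male vehicle array.

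Female and male vehicle arrays did not overlap for 6 of 25 carriers, against 31.2% of all genes. No vehicle array of males shares a slide with one of females, so for this comparison slide and sex can be separated only through the dexamethasone arrays. With slide as a block 0 carriers were called, and 0 in a fit of the vehicle arrays alone, where 0.501% and 3.00% of all genes were. Over all genes 1547 were called higher and 2117 lower in female vehicle, and with quantile normalization 2905 and 1730. The dimmer probe of Slc25a5 was 0.99 ± 0.19 higher in female vehicle (adjusted p = 0.00877, over all probes), while the brightest differed by 0.34 ± 0.24 (adjusted p = 0.362). The largest difference upwards was that of Slc25a24, another ATP-Mg/phosphate carrier. Slc25a24 was at -3.16, -3.58 and -1.93 in male vehicle, with 1 array above background, and at -2.14, -2.14 and -2.10 in female vehicle (0.76 ± 0.35, adjusted p = 0.177). The median over the 25 carriers was -0.18, beside -0.06 over all genes. Of 8 stellate cell and fibroblast markers tested, 5 were higher in female vehicle; their summed level was 4.83 to 7.52 in male and 8.62 to 14.8 in female vehicle, and neither Lrat nor Pdgfrb exceeded background on a male vehicle array. The macrophage receptor gene Csf1r was higher too (1.85 ± 0.37, adjusted p = 0.0098), the only one of 11 macrophage markers called. The summed level of the 10 hepatocyte markers was 1723 to 2528 in male and 1192 to 1711 in female vehicle, with a median difference of -0.47, and 1 of the 10, the fibrinogen gene Fgb, was called lower. That of 6 cholangiocyte markers was 2.94 to 13.3 and 13.5 to 26.9, and 1 of the 6, Epcam, was called lower. The part of these cells in the 2 differences was not tested.

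In dexamethasone, 0 of 25 carriers differed between the sexes at the threshold, against 2.90% of all genes. An unadjusted p under 0.05 was found for 4 of the 25 and for 4858 of all 26550 genes, which is no smaller a share. The sexes did not overlap for 7 of 25 carriers, against 32.2% of all genes. No slide holds dexamethasone arrays of both sexes, so slide and sex can be separated only through the vehicle arrays. With slide as a block 0.0829% of all genes were called. The largest in size of the 4 with an unadjusted p under 0.05 was Slc25a30. It was at -2.15, -2.56 and -1.80 in male and -2.91, -2.95 and -2.73 in female dexamethasone. Its arrays did not overlap, and the difference was -0.69 ± 0.29 (adjusted p = 0.238). In vehicle it had been at -2.78, -1.59 and -1.80 in males and -2.55, -2.84 and -2.64 in females (-0.62 ± 0.29, adjusted p = 0.181), with overlap. A dimmer second probe of Slc25a30 differed in dexamethasone by -0.12 ± 0.28 (adjusted p = 0.877, over all probes). The others of the 4 were Slc25a21 (-0.68 ± 0.25, adjusted p = 0.174), Slc25a25 (-0.55 ± 0.25, adjusted p = 0.265) and Slc25a11 (0.32 ± 0.14, adjusted p = 0.256). Limma's array weights count the noisier arrays less, and were 0.49, 0.67 and 2.82 on male dexamethasone replicates 1 to 3. With these weights all 4 and Slc25a16 passed, 5 of 25 carriers, where 18.0% of all genes were called. Slc25a47 (-0.50, 95% interval -1.76 to 0.77), Slc25a29 (-0.28, -0.92 to 0.35) and Slc25a15 (0.00, -0.98 to 0.99) did not.

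**Figure D5:**
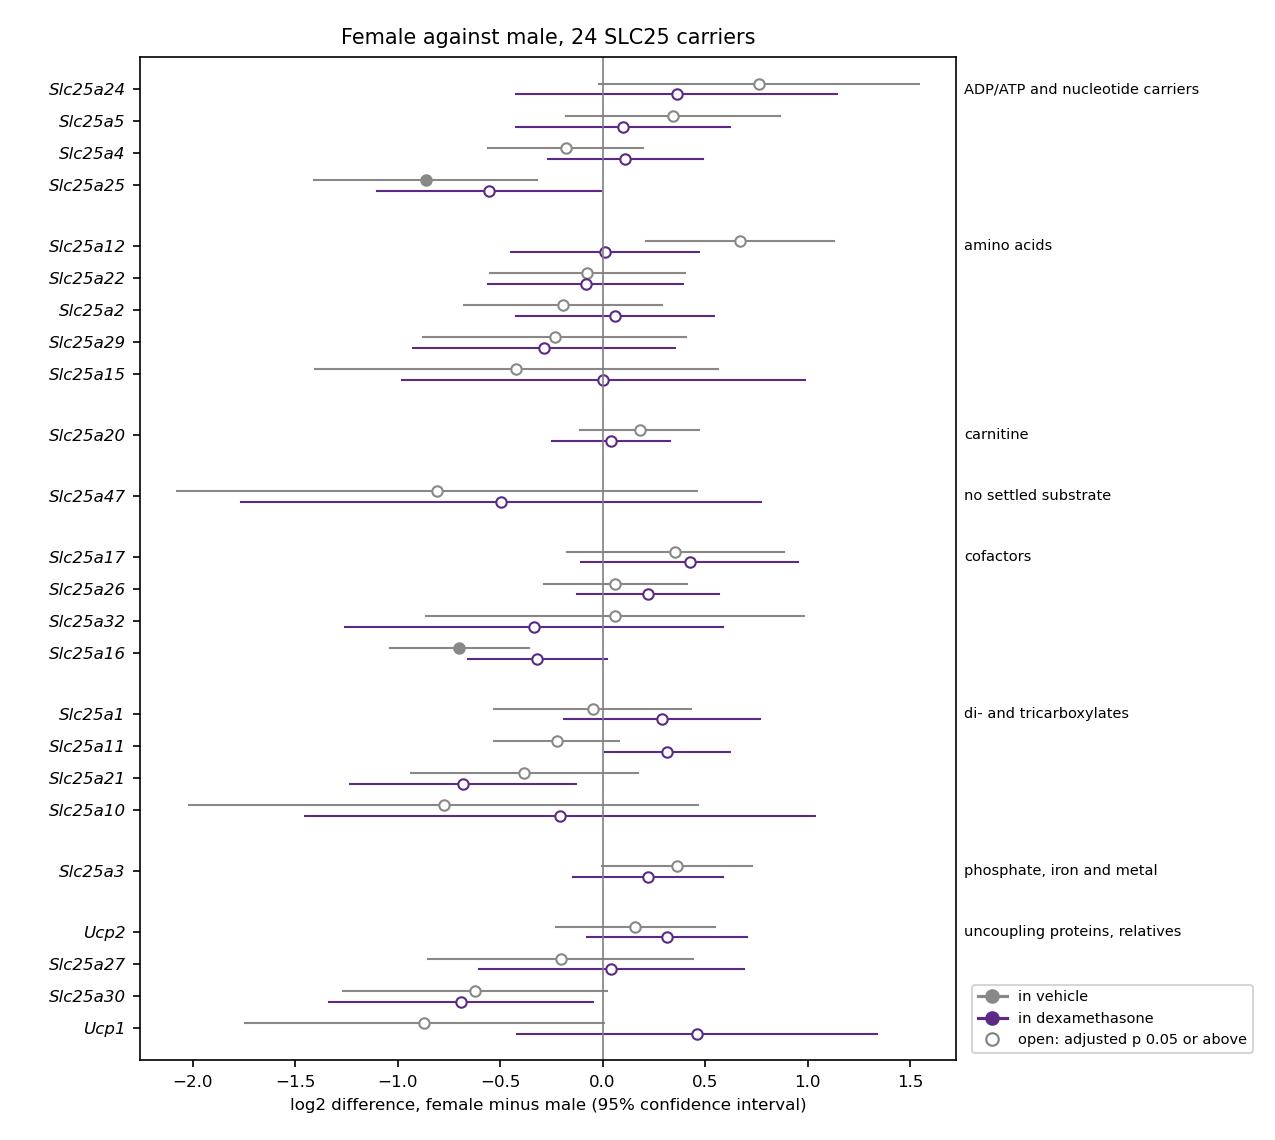
Difference between female and male cultures (log2 units, with its 95% confidence interval from the limma fit) for 24 of the 25 carriers tested, in vehicle (grey) and in dexamethasone (purple). Filled points passed an adjusted p of 0.05: only Slc25a16 and Slc25a25 in vehicle, both lower in females.

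Genes around the carriers were counted from lists. Of 22 tested transporters of the mitochondrial membranes outside the family (of 27 listed: pyruvate carrier, calcium uniporter, sideroflexins, ABC transporters, porins and others), 0 passed in either dexamethasone response. The shares of all genes to read these lists against are 5.22% higher and 4.92% lower in males, and 3.00% and 1.13% in females. Of 45 tested enzymes that use the carriers' substrates (of 49 listed), 3 rose and 1 fell in males, and 5 rose and 0 fell in females. Pck1, an early enzyme of gluconeogenesis, rose by 3.63 ± 0.62 in males (adjusted p = 0.00666) and 2.93 ± 0.62 in females (adjusted p = 0.0265). Cps1, the first enzyme of the urea cycle, rose by 2.43 ± 0.56 (adjusted p = 0.0232) and 2.50 ± 0.56 (adjusted p = 0.0346). Otc, the urea cycle enzyme that uses the ornithine Slc25a15 brings in, differed by -0.21 ± 0.56 (adjusted p = 0.847) and -0.23 ± 0.56 (adjusted p = 0.926). In females Nags, which makes the activator of Cps1, rose by 1.32 ± 0.22 (adjusted p = 0.00994), as did the cytosolic urea cycle enzyme Ass1 (1.28 ± 0.23, adjusted p = 0.0149) and the methionine enzyme Mat1a (1.37 ± 0.31, adjusted p = 0.0352). In males the carnitine enzyme Cpt2 rose by 1.02 ± 0.23 (adjusted p = 0.0221) and the malic enzyme Me1, which serves fatty acid synthesis, fell by 0.69 (SE 0.18, adjusted p = 0.0388). In the limma test of the difference between the responses of the sexes, 0 of the 45 enzymes passed, against 0.105% of all genes. A call in 1 sex alone therefore does not show that the sexes differed.

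Of 21 tested regulators of mitochondrial genes (of 22 listed), 2 rose and 2 fell in males, and 2 rose and 0 fell in females. Ppara, a nuclear receptor known for control of fatty acid oxidation, rose in both. The coactivator Ppargc1b rose in males by 1.44 ± 0.37 (adjusted p = 0.0363) and differed by 1.46 ± 0.37 in females (adjusted p = 0.0557). Its relative Ppargc1a was above background on no vehicle array of either sex and on all 6 dexamethasone arrays. It was at least 6.39-fold higher in female dexamethasone (adjusted p = 0.0175), the bright group's mean against the lowest signal well above background on each vehicle array, and did not pass in males (adjusted p = 0.348). Ppargc1a was kept for testing only through its dexamethasone arrays, so its call, 1 of the 2 female rises, starts from no measured level. The lipogenic factor Srebf1 and the respiratory gene factor Nrf1 fell in males by 0.88 (SE 0.20, adjusted p = 0.0222) and 0.58 (SE 0.15, adjusted p = 0.0388). For the difference between the responses of the sexes, 0 of the 21 regulators passed, against 0.105% of all genes. In vehicle, 1 of the 22 transporters was higher in females and 3 were lower, 0 and 3 of the 45 enzymes, and 1 and 2 of the 21 regulators, against 5.83% and 7.97% of all genes. Mcub, a subunit of the calcium uniporter, was higher by 0.98 ± 0.18 (adjusted p = 0.00773), and so was the mitochondrial DNA factor Tfam (0.80 ± 0.18, adjusted p = 0.0154). The lower transporters were the ABC transporter Abcb6 (-0.96 ± 0.19, adjusted p = 0.0104), the uniporter regulator Micu2 (-0.63 ± 0.18, adjusted p = 0.0449) and the pyruvate carrier subunit Mpc2 (-0.46 ± 0.13, adjusted p = 0.0386). The lower enzymes were Ass1 (-1.07 ± 0.23, adjusted p = 0.0153), the creatine kinase Ckmt1 (-1.31 ± 0.27, adjusted p = 0.0116) and the coenzyme A enzyme Pank1 (-0.99 ± 0.22, adjusted p = 0.0172). The lower regulators were the mitochondrial DNA helicase Twnk (-0.54 ± 0.16, adjusted p = 0.0468) and Ppargc1a. The latter was below background in both groups, so its call compares no measured levels.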

How the data were processed

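Per the file headers, the authors deposited the intensity of each spot from Agilent's Feature Extraction, version 9.5.3.1 (9.5 in the submitters' processing notes), with the background subtracted within each array. The authors' deposited value table held the same intensity values. Median processed signals of the 12 arrays lay between 46.0 and 116. Outlier spots were dropped, saturated ones kept, and spots of a probe averaged. Levels are log2 intensity minus the array's 75th percentile. Probes well above background on all 3 arrays of a group were kept (30985 of 41012), and the brightest stood for its gene.

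One limma 3.58.1 model (R 4.3.3) with 4 group means was fitted to 12 arrays and tested on simulated data. The simulation gave each gene the same spread in every group and had no slide or replicate effects, so it does not cover these. P-values were two-sided and adjusted by Benjamini-Hochberg over 26550 genes. Differences are given with the SE, as dexamethasone minus vehicle or female minus male. Within each sex, deviations of same-numbered arrays correlated at 0.262 to 0.46. Between the sexes they correlated at 0.0149 to 0.11 in vehicle and 0.17 to 0.198 in dexamethasone. What same-numbered arrays share is not given in the labels and was not tested, and the main fit has no term for it.

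Carriers past the threshold, the Ucp genes, Slc25a47 and those with extreme differences are given by array, the others by substrate group; 1 carrier is counted but not reported by name here. Neighbours of Slc25a47 come from RefSeq's gene order. Members and lists were chosen with earlier results of these data known. Alternatives covered scaling, background, filter, probes, slide, pairing, weights and single arrays. The fit without slide 1 was chosen after seeing the data.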

Additional observations from a re-analysis of the deposited data

How the results depend on the processing

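The number of carriers called changed with the slide, spread, background and scaling settings. In the male response it was 6, 1 with slide as a block, 0 within slide 1 alone, 2 in a fit of the groups compared, and 4 to 7 with an array left out. With array weights, which were 0.30, 0.39 and 0.48 on male vehicle replicates 1 to 3, Slc25a22 and Slc25a32 lost their male calls. Of all genes, 4.15% were called in males with these weights. In the female response it was 3, 6 in a fit of the groups compared, 6 with the arrays of slide 1 left out, 8 with array weights (18.9% of all genes), and 3 to 4 with an array left out. For the difference of the responses it was 0, and 1 with quantile normalization (Slc25a12) or with no filter on dim probes (Ucp3, above background on no array), which called 1.10% and 18.8% of all genes; for each array left out it stayed 0. Females against males in vehicle gave 2 calls, 4 with quantile normalization, 8 with normexp, 4 with no filter (17.5%, 47% and 35.3% of all genes called), 1 with the mean of a gene's probes, 0 with slide as a block, 0 in a fit of the groups compared, and 0 to 3 with an array left out (0 without female vehicle replicate 2). In dexamethasone the count was 0, 5 with array weights, 1 with the arrays of slide 1 left out (Slc25a1), and 0 for each array left out. The male difference of Slc25a12 reversed to -0.12 with normexp, which moved the median of all genes in the male response from -0.07 to -0.25 and that of females against males in vehicle from -0.06 to -0.38; quantile normalization moved these to 0.04 and 0.09, and array median scaling the first to -0.19. For the difference of the responses, quantile normalization turned the split over all genes from 20 higher and 8 lower to 36 and 257. The cause of these changes was not tested.

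With the replicate block, which pairs same-numbered arrays, 8 carriers were called in males (5 of the 6, with Slc25a1, Slc25a10 and Slc25a21), 3 in females, 0 for the difference of the responses, 2 in vehicle and 0 in dexamethasone. With this block 15.7% of all genes were called in males, 6.75% in females and 0 for the difference of the responses. Between the sexes it called 18.0% of all genes in vehicle and 5.6% in dexamethasone. Slc25a47, Slc25a29 and Slc25a15 kept their female calls under all 24 alternatives; in males they lost them under 2, 1 and 3 of 23. Dim carriers (Ucp1, Slc25a2, Slc25a12) have no measured level in male vehicle, so signal over background limits them.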

Other observations

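RefSeq lists 7 further carriers of the family under other array names: Slc25a34, Slc25a37, Slc25a38, Slc25a39, Slc25a44, Slc25a46 and Slc25a51. They were found by their updated names after the members had been chosen. In the limma fit over all genes, by each gene's brightest probe, 0 of the 7 passed in any of the 5 comparisons. Of all genes, 0.105% to 13.8% were called in these comparisons, in either direction. Of 4 probes of Slc25a51, 2 dimmer ones were higher in female than in male vehicle, by 2.02 ± 0.49 (adjusted p = 0.0223, over all probes; above background on 2 of 3 male vehicle arrays) and 0.61 ± 0.16 (adjusted p = 0.0337), while the brightest differed by 0.21 ± 0.14 (adjusted p = 0.35). Slc25a44, known as a carrier of branched-chain amino acids, differed by 0.49 ± 0.17 with dexamethasone in males (adjusted p = 0.0966) and by -0.07 ± 0.17 in females (adjusted p = 0.928). Slc25a39, needed for glutathione import, differed by -0.43 ± 0.16 (adjusted p = 0.118) and 0.11 ± 0.16 (adjusted p = 0.861). Slc25a34, of no settled substrate, had the largest difference between the sexes' responses among the 7 (-1.18 ± 0.39, female minus male, adjusted p = 0.241). The mitochondrial iron carrier Slc25a37 differed by -0.48 ± 0.34 in males and -0.38 ± 0.34 in females (adjusted p = 0.411 and 0.692).

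Slc25a10, the dicarboxylate carrier, was highest on replicate 2 in each of the 4 groups. It was at 2.14, 4.08 and 2.13 in male vehicle, 1.72, 3.14 and 1.52 in male dexamethasone, 1.52, 2.56 and 1.94 in female vehicle and 1.52, 2.30 and 1.93 in female dexamethasone. Its dexamethasone difference in males was -0.66 ± 0.56 (adjusted p = 0.497), and -0.66 ± 0.15 with replicate pairs as blocks (adjusted p = 0.032). In females it was -0.09 ± 0.56 (adjusted p = 0.975) and, with the blocks, -0.09 ± 0.15 (adjusted p = 0.793). Slc25a47 was highest on replicate 2 in 3 of the 4 groups and on replicate 1 in female dexamethasone.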
